A study of Mus musculus with 23 samples.

Results

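Chemokines and interleukins are the secreted proteins through which cells call in, position and instruct leukocytes and instruct one another. The ligand genes described here are every symbol of the deposited tables that consists of Ccl or Cxcl and a number, Cx3cl1, or Il with a number and at most 1 further letter. This gave 66 ligand symbols in each of 3 expression tables, which list 24391 genes for normal mammary cells, 24511 for PY230 tumours and 24322 for C3-1-TAg tumours. 4 receptor symbols that fit the same pattern, Il7r, Il9r, Il21r and Il23r, were set aside. A ligand is reported where it reached 1 RPKM, read number scaled to gene length and to all mapped reads of a library, in at least 2 libraries of a table. This held for 34 ligands in normal cells (9 Ccl, 12 Cxcl, Cx3cl1 and 12 interleukins), 33 in PY230 tumours (12 Ccl, 9 Cxcl, Cx3cl1 and 11 interleukins) and 40 in C3-1-TAg tumours (14 Ccl, 10 Cxcl, Cx3cl1 and 15 interleukins). 24 ligands were reported in all 3 tables and 46 in at least 1. The 20 reported in none were Ccl1, Ccl19, Ccl24, Ccl26, Ccl28, Il12a, Il13, Il17a, Il17c, Il2, Il20, Il21, Il22, Il25, Il27, Il3, Il31, Il4, Il5 and Il9. A gene can pass this level through the group in which it is high alone, so counts of ligands called are given beside the share of all genes called.

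The study profiled RNA of cells sorted by FACS from mouse mammary glands and mammary tumours in 23 libraries, each made from about 2000 cells with SmartSeq2, a full-length method that amplifies cDNA from few cells. From wild-type mammary glands of strain C57BL6J came fMaSC, taken at embryonic day 18, and 3 adult populations, basal cells, mature luminal cells and luminal progenitor cells, with 2 libraries each. From tumours that PY230 cells formed after transplantation into syngeneic C57BL6J mice came basal SOX10 high, luminal SOX10 high and luminal SOX10 low cells, with 2 libraries each. From spontaneous C3-1-TAg tumours of strain FVB came 5 SOX10 high and 4 SOX10 low samples, all of which are titled basal. PY230 is a mouse mammary tumour cell line, so its 3 groups descend from 1 line. C3-1-TAg mice carry SV40 large T antigen, and SOX10 is a transcription factor of the mammary epithelium and of neural crest. How the cells were gated is not stated in these sources, and the labels do not tie libraries to animals or tumours, so p-values measure the spread between libraries that the design text calls biological replicates.

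CXC chemokines with an ELR motif draw neutrophils through CXCR2, the CXCR3 ligands are made after interferon, and CC chemokines mostly draw monocytes, macrophages and lymphocytes. Cxcl12 holds CXCR4-bearing cells in place and is also taken up by ACKR3. Many inflammatory ligand genes are switched on by NF-kB downstream of interleukin 1 and tumour necrosis factor. In the mammary gland, basal cells are contractile and border the stroma, luminal progenitors give rise to milk-producing cells, and mature luminal cells carry the hormone receptors.

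Levels below are the authors' RPKM, and differences are on the log2(RPKM + 1) scale, which understates the change of low genes. A gene is called where limma's two-sided test across all genes of a table gave a Benjamini-Hochberg adjusted p under 0.05, and all adjusted p-values are of that kind. With 2 libraries in most groups the spread was pooled over the groups of a table, and its median over genes was 0.27 in normal cells, 0.17 in PY230 and 0.40 in C3-1-TAg tumours on that scale. Depth is unknown, since the tables hold RPKM alone. Libraries detected between 10056 and 12504 genes at 1 RPKM. Bulk RNA of sorted cells cannot tell fewer cells of a type from less RNA per cell.

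The largest ligand signals came from a cluster of CXC genes on chromosome 5, which holds 9 of the Cxcl symbols, while 11 Ccl symbols lie on chromosome 11. Promoters are printed for 4 neighbouring neutrophil chemokine genes of this cluster, because Cxcl1, Cxcl2 and Cxcl3 were highest in luminal progenitors and Cxcl15 in mature luminal cells. The promoter of Cxcl5, also in the cluster and highest in luminal progenitors, is not printed. Cxcl5 is not among the ligands with a match named below, and whether its promoter was among those searched is not stated. Each printed promoter runs 5′ to 3′ on the plus strand from 250 bases before the RefSeq start to 50 after it, in build GRCm38.p6 (the expression tables were made on mm9), and capitals mark matches to GGGNNTTTCC, an NF-kB consensus, on either strand.
Cxcl1, chr5:90890995-90891294: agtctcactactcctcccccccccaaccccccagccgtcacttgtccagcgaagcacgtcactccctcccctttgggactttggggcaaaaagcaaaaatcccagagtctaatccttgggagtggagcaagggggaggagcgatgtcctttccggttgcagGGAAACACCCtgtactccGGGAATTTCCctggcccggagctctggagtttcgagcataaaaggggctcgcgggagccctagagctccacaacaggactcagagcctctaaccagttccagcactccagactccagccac
Cxcl2, chr5:90903649-90903948: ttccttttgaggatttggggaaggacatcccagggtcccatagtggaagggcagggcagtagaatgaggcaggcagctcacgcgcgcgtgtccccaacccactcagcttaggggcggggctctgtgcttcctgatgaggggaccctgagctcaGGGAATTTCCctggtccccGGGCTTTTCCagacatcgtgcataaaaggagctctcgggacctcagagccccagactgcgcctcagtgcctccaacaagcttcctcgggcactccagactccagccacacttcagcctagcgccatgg
Cxcl3, chr5:90785851-90786150: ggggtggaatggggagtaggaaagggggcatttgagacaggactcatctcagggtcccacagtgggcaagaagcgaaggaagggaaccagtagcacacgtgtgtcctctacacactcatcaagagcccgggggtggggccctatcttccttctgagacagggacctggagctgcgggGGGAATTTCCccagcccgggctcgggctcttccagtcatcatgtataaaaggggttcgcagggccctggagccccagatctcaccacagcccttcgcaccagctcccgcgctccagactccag
Cxcl15, chr5:90794284-90794583: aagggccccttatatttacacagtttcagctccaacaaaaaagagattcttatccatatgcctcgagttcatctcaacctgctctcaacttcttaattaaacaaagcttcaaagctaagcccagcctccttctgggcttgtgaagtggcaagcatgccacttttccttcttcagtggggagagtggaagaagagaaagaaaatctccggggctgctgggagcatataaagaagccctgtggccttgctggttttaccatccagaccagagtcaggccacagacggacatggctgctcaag
Cxcl1 and Cxcl2 each held 2 matches, Cxcl3 held 1, and these letters do not occur in the Cxcl15 window. The forward match GGGAATTTCC, shared by Cxcl1, Cxcl2 and Cxcl3, began 71, 97 and 73 bases before the start of each gene. Of the 46 ligand symbols with a promoter in the table, 8 held a match (Ccl20, Ccl9, Il9, Il6, Cxcl3, Cxcl1, Cxcl2 and Il16), which was 15.1% of 53 ligand promoters against 1.63% of all 32851 promoters. By group mean in normal cells, Ccl9 was also highest in luminal progenitors, but Il6 and Il16 were highest in basal cells and Ccl20 in fMaSC. Il9 was listed at 0 in every normal library. A match is a description of letters and not a measured binding site.

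Among normal mammary cells, luminal progenitors and basal cells carried far more ligand RNA than mature luminal cells or fMaSC. In every group but mature luminal cells, 1 gene made up most of it. The ligands summed to 703 and 736 RPKM in fMaSC, 4088 and 3369 in basal cells, 731 and 760.3 in mature luminal cells and 8057 and 5416 in luminal progenitors. In these libraries the basal markers Krt14 and Trp63 were highest in basal cells, though Acta2, of the same list, was higher in fMaSC (621 and 608 RPKM, against 306 and 135 in basal cells). The progenitor gene Kit was highest in luminal progenitors and Esr1, the oestrogen receptor gene, in mature luminal cells. fMaSC held both basal and progenitor markers, with Krt14 at 107 and 112 RPKM and Kit at 6.54 and 6.21 RPKM. Cxcl1, a neutrophil chemokine, was the first ligand in all 8 normal libraries and held 33.5% to 77.6% of the summed ligand RPKM. The second was Ccl2 in fMaSC, Cxcl16 in basal and mature luminal cells and Cxcl2 in luminal progenitors. The group with the highest mean was basal cells for 12 of the 34 ligands (28.4% of all 12553 genes tested), luminal progenitors for 11 (11.4%), mature luminal cells for 6 (16.0%) and fMaSC for 5 (44.1%).

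**Figure D1:**
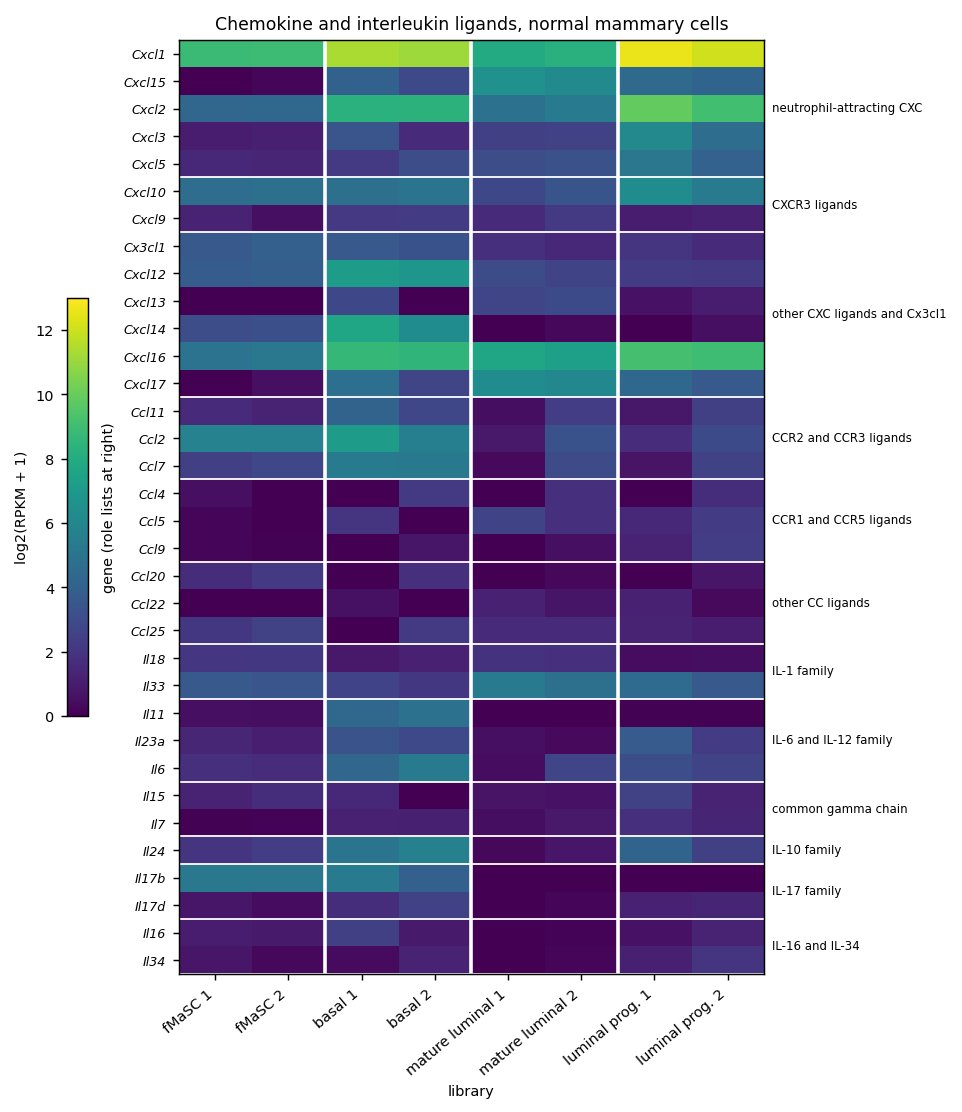
Level of each of the 34 ligands reported in normal cells, as log2(RPKM + 1) by colour, with 1 column per library and 1 row per ligand, grouped by role. Cxcl1 is the brightest row in every library, and Cxcl1, Cxcl2, Cxcl3 and Cxcl5 are brightest in luminal progenitors. Il11, Cxcl12 and Cxcl14 are brightest in basal cells, and Il17b is bright in both fMaSC and basal cells.

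Against basal cells, 2 ligands were higher and 16 lower in fMaSC of 34, where 60.3% of all genes were called (36.9% higher and 23.4% lower), and the median log2 difference of the ligands was -1.28 beside 0.27 for all genes. Against luminal progenitors, 6 were higher and 11 lower in fMaSC (all genes 50.6%, with 35.5% higher and 15% lower), with medians of -0.72 for ligands and 0.39 for all genes. Against mature luminal cells, 9 were higher and 9 lower in fMaSC (all genes 56.4%, with 41.7% higher and 14.7% lower), and the split was 5 higher and 12 lower after quantile normalization and 6 and 12 after median-of-ratios factors. That count of 18 was 9 without fMaSC replicate 2 and 11 without mature luminal replicate 1. The 3 comparisons share the fMaSC libraries. In each of them the share of ligands called, 52.9%, 50% and 52.9% in that order, was close to that of all genes.

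Among adult cells, 9 ligands were higher and 6 lower in basal cells than in luminal progenitors (35.5% of all genes called, 21% higher and 14.5% lower). The count of 15 was 23 without basal replicate 1 and 6, all of them higher, without luminal progenitor replicate 1. In basal cells against mature luminal cells, 16 were higher and 4 lower (all genes 48.6%, with 28.8% higher and 19.8% lower), with medians of 0.91 for ligands and 0.12 for all genes. In mature luminal cells against luminal progenitors, 3 were higher and 12 lower (all genes 22.1%, with 8.63% higher and 13.4% lower). This last count of 15 was 8 without luminal progenitor replicate 1, 5 without mature luminal replicate 1, 6 without mature luminal replicate 2 and 9 without the filter on low values. The median of all genes in fMaSC against mature luminal cells was 0.53 as deposited and 0.00 after quantile normalization, the largest such shift among these 6 comparisons.

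The neutrophil chemokines formed the strongest ligand group of luminal progenitors. Cxcl1 had 464 and 481 RPKM in fMaSC, 2571 and 2168 in basal cells, 245 and 309 in mature luminal cells and 6232 and 4203 in luminal progenitors. The luminal progenitor libraries lay above all others, basal cells came next, and fMaSC lay above mature luminal cells. Cxcl1 fell in mature luminal cells against luminal progenitors (log2 fold change -4.21 ± 0.26 SE, adjusted p = 2.6e-04), in fMaSC against luminal progenitors (log2 fold change -3.44 ± 0.26 SE, adjusted p = 6.9e-05) and in fMaSC against basal cells (log2 fold change -2.32 ± 0.26 SE, adjusted p = 3.0e-04). It rose in basal cells against mature luminal cells (log2 fold change 3.10 ± 0.26 SE, adjusted p = 1.7e-04). Between the neighbours in this order the difference was smaller, for basal cells against luminal progenitors (log2 fold change -1.12 ± 0.26 SE, adjusted p = 0.0144) and for fMaSC against mature luminal cells (log2 fold change 0.78 ± 0.26 SE, adjusted p = 0.0339). The call for Cxcl1 in basal cells over luminal progenitors was lost without luminal progenitor replicate 1 or under quantile normalization (adjusted p = 0.0629 to 0.849). The call for Cxcl1 in fMaSC over mature luminal cells was lost without mature luminal replicate 1, mature luminal replicate 2, fMaSC replicate 1 or fMaSC replicate 2 or with median-of-ratios factors or under quantile normalization or without the filter on low values (adjusted p = 0.058 to 0.406).

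Cxcl2, which signals through the same receptor, had 18.3 and 19.7 RPKM in fMaSC, 320.2 and 328 in basal cells, 27.6 and 40.3 in mature luminal cells and 939 and 529 in luminal progenitors. Its order was that of Cxcl1 except that mature luminal cells lay above fMaSC. Cxcl2 fell in fMaSC against luminal progenitors (log2 fold change -5.14 ± 0.30 SE, adjusted p = 2.7e-05) and in mature luminal cells against luminal progenitors (log2 fold change -4.36 ± 0.30 SE, adjusted p = 3.6e-04), and rose in basal cells against mature luminal cells (log2 fold change 3.24 ± 0.30 SE, adjusted p = 2.6e-04). Cxcl3, a close relative, had 1.07 and 1.17 RPKM in fMaSC, 9.95 and 2.06 in basal cells, 4.44 and 4.85 in mature luminal cells and 68.6 and 23.6 in luminal progenitors. It was far below Cxcl1 everywhere, and both luminal progenitor libraries lay above every other library. Cxcl3 fell in fMaSC against luminal progenitors (log2 fold change -4.29 ± 0.65 SE, adjusted p = 0.00149) and in basal cells against luminal progenitors (log2 fold change -2.84 ± 0.65 SE, adjusted p = 0.0148). The 3 genes are similar in sequence, and how the authors' counting placed reads that fit more than 1 of them is not stated in the sources. The call for Cxcl3 in basal cells over luminal progenitors was lost without luminal progenitor replicate 1 (adjusted p = 0.0882).

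Cxcl5, another CXCR2 ligand, had 1.74 and 1.64 RPKM in fMaSC, 3.65 and 7.42 in basal cells, 7.54 and 8.41 in mature luminal cells and 34.5 and 16.1 in luminal progenitors, with luminal progenitors highest and fMaSC lowest. It fell in fMaSC against luminal progenitors (log2 fold change -3.19 ± 0.41 SE, adjusted p = 6.8e-04). Cxcl15, known in the mouse as lungkine for its place in the airway epithelium, went the other way within the luminal lineage. It had 0 and 0.179 RPKM in fMaSC, 15.5 and 6.20 in basal cells, 92.8 and 74.8 in mature luminal cells and 21.1 and 17.2 in luminal progenitors. Mature luminal libraries lay above all others, and fMaSC held next to none, so the size of the difference from fMaSC depends on the 1 added before the log. Cxcl15 fell in fMaSC against mature luminal cells (log2 fold change -6.28 ± 0.38 SE, adjusted p = 2.4e-05) and in basal cells against mature luminal cells (log2 fold change -2.95 ± 0.38 SE, adjusted p = 0.00105), and rose in mature luminal cells against luminal progenitors (log2 fold change 2.07 ± 0.38 SE, adjusted p = 0.0102). In that last comparison the other 4 neutrophil chemokines, Cxcl1, Cxcl2, Cxcl3 and Cxcl5, were all called lower. The call for Cxcl3 there was lost without luminal progenitor replicate 1, either mature luminal replicate or the filter on low values (adjusted p = 0.0517 to 0.125). Cxcl5 lost it under the same changes, with pseudocount 0.25, under quantile normalization and with a replicate block (adjusted p = 0.0507 to 0.208). The call for Cxcl15 in mature luminal cells over luminal progenitors was lost without luminal progenitor replicate 1, luminal progenitor replicate 2, mature luminal replicate 1 or mature luminal replicate 2 (adjusted p = 0.0525 to 0.0727).

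Receptors and inflammatory partners were counted from lists. Cxcr2, the receptor of these ligands, was added after its values were seen, and no normal library reached 1 RPKM of it: it had 0 and 0 RPKM in fMaSC, 0.211 and 0 in basal cells, 0 and 0.172 in mature luminal cells and 0.0505 and 0 in luminal progenitors. Of 19 NF-kB pathway and feedback genes tested, 1 was higher and 14 lower in fMaSC than in luminal progenitors (all genes 35.5% higher and 15% lower), and 1 was higher and 10 lower in mature luminal cells than in luminal progenitors (all genes 8.63% higher and 13.4% lower). The median log2 difference of the list was -1.59 in the first comparison (all genes 0.39) and -0.93 in the second (all genes -0.04). Csf3, the granulocyte colony-stimulating factor, had 9.78 and 10.2 RPKM in fMaSC, 20.02 and 16.1 in basal cells, 15.5 and 12.9 in mature luminal cells and 366 and 275 in luminal progenitors. It was highest in luminal progenitors by a wide margin, and fell in mature luminal cells against them (log2 fold change -4.40 ± 0.22 SE, adjusted p = 2.1e-04). Irak3, a brake on interleukin 1 receptor signalling, fell in fMaSC against luminal progenitors (log2 fold change -4.07 ± 0.25 SE, adjusted p = 3.5e-05), and Tnf, the gene of tumour necrosis factor, fell in basal cells against luminal progenitors (log2 fold change -3.63 ± 0.25 SE, adjusted p = 1.3e-04). Il1rn, the secreted interleukin 1 receptor antagonist, had 1.752 and 0.852 RPKM in fMaSC, 2.28 and 5.97 in basal cells, 28.6 and 23.1 in mature luminal cells and 45.1 and 30.5 in luminal progenitors. Il1rn fell in fMaSC against luminal progenitors (log2 fold change -4.08 ± 0.41 SE, adjusted p = 2.3e-04).

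Markers of leukocytes were looked at beside these levels. The 5 general leukocyte markers summed to 2.14 to 2.73 RPKM in luminal progenitors, and the 12 myeloid markers to 72.8 to 73.3 RPKM, most of it Cd68 and S100a8, while C1qa, C1qb, C1qc and S100a9 were listed at 0 there. S100a9 was listed at 0 in every normal library, and C1qa, C1qb and C1qc also in mature luminal cells. In the other groups the myeloid sum was 19.7 to 24.8 RPKM in fMaSC, 17.2 to 86.6 in basal cells and 16.7 to 18.9 in mature luminal cells. The part of leukocyte RNA in the ligand levels was not tested.

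Cxcl12 and Cxcl14 were highest in basal cells. Cxcl12, the ligand of CXCR4 and ACKR3, had 12.7 and 14.3 RPKM in fMaSC, 146 and 114 in basal cells, 6.73 and 5.41 in mature luminal cells and 3.84 and 3.69 in luminal progenitors. Both basal libraries lay far above the rest, fMaSC came next, and the luminal groups were lowest. Cxcl12 rose in basal cells against luminal progenitors (log2 fold change 4.78 ± 0.21 SE, adjusted p = 4.2e-05) and against mature luminal cells (log2 fold change 4.21 ± 0.21 SE, adjusted p = 4.2e-05), and fell in fMaSC against basal cells (log2 fold change -3.17 ± 0.21 SE, adjusted p = 5.3e-05). Cxcl14, a chemokine of epithelia, had 7.55 and 7.87 RPKM in fMaSC, 208 and 79.5 in basal cells, 0 and 0.208 in mature luminal cells and 0 and 0.470 in luminal progenitors. The basal libraries differed from each other but lay above all others, fMaSC was lower, and 1 library of each luminal group was listed at 0. The size of the difference from luminal cells thus depends on the 1 added before the log. Cxcl14 rose in basal cells against mature luminal cells (log2 fold change 6.88 ± 0.44 SE, adjusted p = 7.0e-05) and fell in fMaSC against basal cells (log2 fold change -3.90 ± 0.44 SE, adjusted p = 3.5e-04).

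Ackr3, the scavenging receptor of Cxcl12, was one of the 3 atypical chemokine receptors tested. It had 3.57 and 6.28 RPKM in fMaSC, 63.7 and 29.3 in basal cells, 0.748 and 0.488 in mature luminal cells and 9.18 and 5.30 in luminal progenitors. It was highest in the same cells as its ligand. Ackr3 rose in basal cells against mature luminal cells (log2 fold change 4.78 ± 0.43 SE, adjusted p = 2.5e-04). Cxcr4, the signalling receptor, had 2.69 and 3.54 RPKM in fMaSC, 5.16 and 2.89 in basal cells, 0.1896 and 0.169 in mature luminal cells and 11.5 and 3.52 in luminal progenitors. It was near 0 in mature luminal cells and rose in basal cells against them (log2 fold change 2.05 ± 0.47 SE, adjusted p = 0.0101). Cx3cl1, a chemokine tethered to the membrane, had 11.4 and 14.7 RPKM in fMaSC, 11.3 and 8.77 in basal cells, 2.43 and 1.76 in mature luminal cells and 3.04 and 2.06 in luminal progenitors, with fMaSC and basal cells above both luminal groups. It rose in basal cells against mature luminal cells (log2 fold change 1.83 ± 0.27 SE, adjusted p = 0.00172).

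Cxcl10, the most abundant of the CXCR3 ligands, had 23.8 and 26.9 RPKM in fMaSC, 26.7 and 30.6 in basal cells, 6.01 and 9.25 in mature luminal cells and 79.9 and 40.2 in luminal progenitors. Mature luminal libraries lay below all others, and luminal progenitors above all others. It fell in mature luminal cells against luminal progenitors (log2 fold change -2.77 ± 0.34 SE, adjusted p = 0.00237) and rose in basal cells against mature luminal cells (log2 fold change 1.80 ± 0.34 SE, adjusted p = 0.00471). The other reported CXC ligands, Cxcl9 and Cxcl13, stayed between 0 and 6.55 RPKM.

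Cxcl16 and Cxcl17 are epithelial chemokines with different patterns. Cxcl16, the ligand of CXCR6, had 29.7 and 35.3 RPKM in fMaSC, 399.7 and 359 in basal cells, 199 and 163 in mature luminal cells and 572 and 503 in luminal progenitors. Luminal progenitors and basal cells were high, mature luminal cells intermediate and fMaSC low, without overlap between groups. It fell in fMaSC against luminal progenitors (log2 fold change -4.01 ± 0.19 SE, adjusted p = 1.7e-05). Cxcl17, a mucosal chemokine, had 0 and 0.472 RPKM in fMaSC, 25.7 and 5.49 in basal cells, 78.3 and 65.7 in mature luminal cells and 19.6 and 11.3 in luminal progenitors. It was highest in mature luminal cells, as Cxcl15 was, and close to 0 in fMaSC, and fell in fMaSC against mature luminal cells (log2 fold change -5.91 ± 0.62 SE, adjusted p = 2.2e-04). The size of this fall depends on the 1 added before the log. Basal libraries also held luminal RNA: Krt19, a luminal keratin, had 386 and 121 RPKM in basal cells against 3126 and 2642 in mature luminal cells, while the part of this in the basal levels of Cxcl15 and Cxcl17 was not tested.

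Among CC chemokines, Ccl2 was higher in basal cells and fMaSC than in luminal cells, and Ccl7 in basal cells. Ccl2, which recruits monocytes through CCR2, had 54.2 and 54.3 RPKM in fMaSC, 142 and 47.2 in basal cells, 0.881 and 8.75 in mature luminal cells and 2.14 and 6.69 in luminal progenitors. All fMaSC and basal libraries lay above all luminal ones. It rose in basal cells against mature luminal cells (log2 fold change 4.28 ± 0.84 SE, adjusted p = 0.00536) and in fMaSC against luminal progenitors (log2 fold change 3.49 ± 0.84 SE, adjusted p = 0.011). Ccl7, its neighbour among CCR2 ligands, ranged from 36.6 to 39.8 RPKM in basal cells and from 0.267 to 6.80 in all other normal libraries, with fMaSC inside the luminal range. The 7 fibroblast markers summed to 83.1 to 99.8 RPKM in fMaSC, 54.9 to 58.5 in basal cells, 7.30 to 25.5 in mature luminal cells and 13.5 to 24.5 in luminal progenitors. In basal cells most of this sum was Dcn, at 49.7 and 50.0 RPKM. Of 6 markers tested there, 1 was higher and 1 lower than in luminal progenitors (all genes 21% higher and 14.5% lower). fMaSC had 5 higher and 0 lower than luminal progenitors (all genes 35.5% higher and 15% lower). Their part in these levels was not tested. The other CC chemokines reported in normal cells, Ccl4, Ccl5, Ccl9, Ccl11, Ccl20, Ccl22 and Ccl25, stayed between 0 and 16.4 RPKM. The call for Ccl2 in fMaSC over luminal progenitors was lost without luminal progenitor replicate 1, fMaSC replicate 1 or fMaSC replicate 2 (adjusted p = 0.0508 to 0.0788).

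Interleukins were low beside the leading chemokines, and their highest group means were those of Il24 in basal cells, Il17b in fMaSC and Il33 in mature luminal cells. Il17b, an interleukin 17 family member that binds IL17RB, had 35.5 and 34.8 RPKM in fMaSC, 38.4 and 14.7 in basal cells, 0 and 0 in mature luminal cells and 0 and 0 in luminal progenitors. It was present in fMaSC and in basal cells at overlapping levels and listed at 0 in all 4 luminal libraries, so no fold is given against luminal cells. The difference was called for fMaSC against luminal progenitors (adjusted p = 8.3e-05) and for basal cells against mature luminal cells (adjusted p = 2.1e-04). Between fMaSC and basal cells it was not called (log2 fold change 0.54 ± 0.40 SE, adjusted p = 0.279). Il11, an interleukin 6 family cytokine, had 0.451 and 0.391 RPKM in fMaSC, 19.3 and 28.9 in basal cells, 0 and 0 in mature luminal cells and 0.0612 and 0.0600 in luminal progenitors. Of the 8 normal libraries, the basal ones alone reached 1 RPKM. Il11 is thus reported through that group alone, and its tests are not independent of that choice. It rose in basal cells against luminal progenitors (log2 fold change 4.54 ± 0.23 SE, adjusted p = 5.3e-05) and fell in fMaSC against basal cells (log2 fold change -4.12 ± 0.23 SE, adjusted p = 3.0e-05). The size of both depends on the 1 added before the log.

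Il24, an interleukin 10 family cytokine that acts on epithelia, had 3.08 and 4.12 RPKM in fMaSC, 31.4 and 49.1 in basal cells, 0.201 and 0.727 in mature luminal cells and 17.5 and 4.47 in luminal progenitors. Basal libraries were highest, luminal progenitors next and mature luminal cells lowest, without overlap between those groups. It rose in basal cells against mature luminal cells (log2 fold change 4.81 ± 0.55 SE, adjusted p = 6.2e-04) and fell in fMaSC against basal cells (log2 fold change -3.14 ± 0.55 SE, adjusted p = 0.00227). Il6, the namesake of its family, ranged from 18.5 to 39.4 RPKM in basal cells and from 0.361 to 7.79 in all others. Il33, an alarmin of the interleukin 1 family kept in the nucleus, had 11.3 and 9.80 RPKM in fMaSC, 5.23 and 3.26 in basal cells, 37.9 and 27.1 in mature luminal cells and 22.6 and 11.4 in luminal progenitors, highest in mature luminal cells and lowest in basal cells. It fell in basal cells against mature luminal cells (log2 fold change -2.68 ± 0.36 SE, adjusted p = 0.00117). Il18, also of that family, stayed between 0.342 and 3.38 RPKM, and Il7, Il15, Il16, Il17d, Il23a and Il34 between 0 and 12.5 RPKM.

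Of 28 interleukin receptor chains tested, 2 rose and 17 fell in fMaSC against basal cells (all genes 36.9% higher and 23.4% lower), and 11 rose and 7 fell in basal cells against mature luminal cells (all genes 28.8% higher and 19.8% lower). Il18r1, the receptor of Il18, had 0 and 0 RPKM in fMaSC, 4.85 and 4.38 in basal cells, 26.5 and 31.7 in mature luminal cells and 10.3 and 6.41 in luminal progenitors. It was highest in mature luminal cells and listed at 0 in both fMaSC libraries, so no fold is given against fMaSC. Il1rap, a shared chain of interleukin 1 and interleukin 33 receptors, had 6.06 and 6.15 RPKM in fMaSC, 25.0 and 28.1 in basal cells, 1.16 and 1.22 in mature luminal cells and 39.9 and 41.8 in luminal progenitors. Il1rap fell in mature luminal cells against luminal progenitors (log2 fold change -4.26 ± 0.19 SE, adjusted p = 1.2e-04). Il1rl1, the receptor of Il33, rose in mature luminal cells against luminal progenitors (log2 fold change 2.74 ± 0.44 SE, adjusted p = 0.00608); the difference in Il33 itself did not pass the test (log2 fold change 0.95 ± 0.36 SE, adjusted p = 0.103). Il17ra, a chain common to interleukin 17 receptors, fell in fMaSC against basal cells (log2 fold change -3.15 ± 0.28 SE, adjusted p = 1.3e-04).

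**Figure D2:**
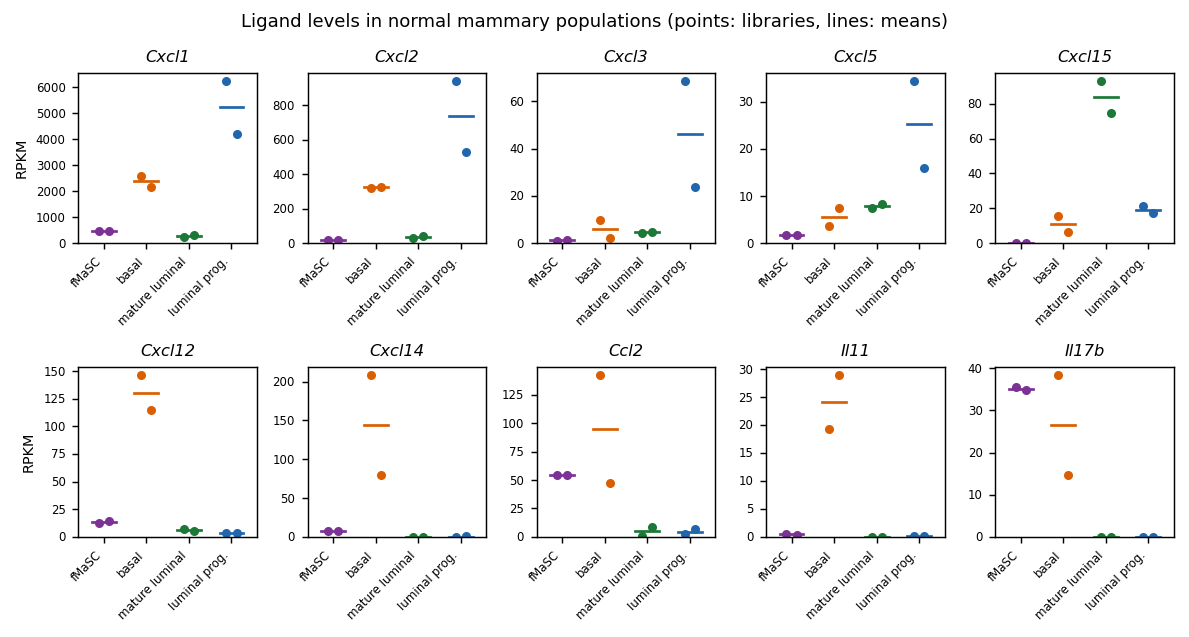
RPKM of 10 ligands in the 8 normal libraries on a linear axis of its own for each ligand, with 1 point per library, a bar at the mean and the groups side by side. Cxcl1, Cxcl2, Cxcl3 and Cxcl5 are highest in luminal progenitors, Cxcl15 in mature luminal cells, and Cxcl12, Cxcl14 and Il11 in basal cells, while Il17b is present in fMaSC and basal cells alone.

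In PY230 tumours the basal SOX10 high cells carried the most ligand RNA, and Il17b led it. The ligands summed to 1005 and 978 RPKM in basal SOX10 high cells, 283 and 333 in luminal SOX10 high cells and 289.8 and 239 in luminal SOX10 low cells. Sox10 itself had 72.0 and 78.3 RPKM in basal SOX10 high cells, 101 and 66.9 in luminal SOX10 high cells and 13.6 and 11.01 in luminal SOX10 low cells. Krt5 and Trp63, basal markers, were at 388 and 391 RPKM and at 42.9 and 55.4 RPKM in basal SOX10 high cells, and at most 17.2 and 2.28 RPKM in any luminal library. Krt8, a luminal keratin, stood at 85.9 and 105 RPKM in basal SOX10 high cells and at 752 to 1597 RPKM in luminal ones. Basal SOX10 high cells had the highest mean for 15 of 33 ligands (28.6% of all 13136 genes tested), luminal SOX10 high cells for 13 (30.3%) and luminal SOX10 low cells for 5 (41.1%). The 3 comparisons below share libraries in pairs.

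In basal SOX10 high against luminal SOX10 low cells, 16 ligands were higher and 4 lower of 33 (all genes 55.2%, with 21.8% higher and 33.4% lower), with medians of 0.77 for ligands and -0.16 for all genes. The count of 20 was 12 without basal SOX10 high replicate 2. In basal SOX10 high against luminal SOX10 high cells, 10 were higher and 5 lower (all genes 42%, with 13.8% higher and 28.2% lower). That count of 15 was 9 without basal SOX10 high replicate 1. In luminal SOX10 high against luminal SOX10 low cells, 8 were higher and 2 lower (all genes 22.6%, with 12.6% higher and 10% lower), with medians of 0.58 for ligands and 0.01 for all genes. This last count of 10 was 2 and 6 without luminal SOX10 high replicates 1 and 2, 6 and 1 without luminal SOX10 low replicates 1 and 2 and 4 without the filter on low values.

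Il17b had 295 and 256 RPKM in basal SOX10 high cells, 8.94 and 8.34 in luminal SOX10 high cells and 3.93 and 4.65 in luminal SOX10 low cells. The basal libraries lay far above the luminal ones, and luminal SOX10 high lay above luminal SOX10 low without overlap. It rose in basal SOX10 high cells against luminal SOX10 low (log2 fold change 5.71 ± 0.14 SE, adjusted p = 1.8e-05) and luminal SOX10 high cells (log2 fold change 4.84 ± 0.14 SE, adjusted p = 6.6e-05), and in luminal SOX10 high against luminal SOX10 low cells (log2 fold change 0.87 ± 0.14 SE, adjusted p = 0.0113). Its receptor chain Il17rb was named after its values were seen. Il17rb had 0.856 and 1.65 RPKM in basal SOX10 high cells and 1.28 and 2.93 in luminal SOX10 high cells. In luminal SOX10 low cells it had 6.08 and 4.52, so in PY230 tumours it was highest where the ligand was lowest. Normal cells did not show this order. There both basal libraries, in which Il17b was present, reached 1 RPKM of Il17rb, and no other normal library did. The others were fMaSC, which also held Il17b, and the luminal groups, where Il17b was listed at 0. The call for Il17b in luminal SOX10 high cells over luminal SOX10 low cells was lost without luminal SOX10 low replicate 1 or without luminal SOX10 low replicate 2 (adjusted p = 0.0556 to 0.0742).

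Cxcl12 and Cxcl14 were also higher in basal SOX10 high cells. Cxcl12 had 83.2 and 94.5 RPKM in basal SOX10 high cells, 3.07 and 4.58 in luminal SOX10 high cells and 2.65 and 2.13 in luminal SOX10 low cells. Cxcl14 had 136 and 129 RPKM in basal SOX10 high cells, 8.28 and 10.996 in luminal SOX10 high cells and 5.77 and 3.51 in luminal SOX10 low cells. For both genes the basal libraries lay above every luminal library. In basal SOX10 high against luminal SOX10 low cells Cxcl12 rose (log2 fold change 4.73 ± 0.19 SE, adjusted p = 2.6e-05), as did Cxcl14 (log2 fold change 4.59 ± 0.22 SE, adjusted p = 3.3e-05). Cx3cl1 had 109.8 and 89.6 RPKM in basal SOX10 high cells, 30.6 and 29.3 in luminal SOX10 high cells and 27.1 and 29.1 in luminal SOX10 low cells. Cx3cl1 rose in basal SOX10 high against luminal SOX10 low cells (log2 fold change 1.78 ± 0.14 SE, adjusted p = 1.2e-04), with the luminal groups overlapping. Ackr3, the scavenger of Cxcl12, had 6.79 and 6.52 RPKM in basal SOX10 high cells, 1.34 and 2.05 in luminal SOX10 high cells and 0.936 and 0.458 in luminal SOX10 low cells. Ackr3 rose in the same comparison (log2 fold change 2.19 ± 0.21 SE, adjusted p = 2.6e-04), as did Ackr4, a scavenger of homeostatic CC chemokines (log2 fold change 2.56 ± 0.22 SE, adjusted p = 1.8e-04).

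Cxcl1 had 162 and 155 RPKM in basal SOX10 high cells, 64.2 and 70.4 in luminal SOX10 high cells and 71.2 and 70.1 in luminal SOX10 low cells. The luminal groups had similar levels. Cxcl1 rose in basal SOX10 high against luminal SOX10 low cells (log2 fold change 1.16 ± 0.12 SE, adjusted p = 3.8e-04). Its level against luminal SOX10 high cells was also higher (log2 fold change 1.23 ± 0.12 SE, adjusted p = 5.5e-04). Cxcl10, an interferon-induced ligand of CXCR3, had 90.7 and 67.1 RPKM in basal SOX10 high cells, 41.6 and 21.9 in luminal SOX10 high cells and 12.2 and 16.5 in luminal SOX10 low cells, with no overlap of basal SOX10 high and either luminal group. Cxcl10 rose against luminal SOX10 low cells (log2 fold change 2.38 ± 0.31 SE, adjusted p = 9.2e-04). Il6 had 13.4 and 18.2 RPKM in basal SOX10 high cells, 3.71 and 8.001 in luminal SOX10 high cells and 3.97 and 0.352 in luminal SOX10 low cells. Il6 rose in the same comparison (log2 fold change 2.68 ± 0.60 SE, adjusted p = 0.00872). Il34, another ligand of the macrophage receptor CSF1R, had 6.65 and 5.17 RPKM in basal SOX10 high cells, 1.48 and 1.61 in luminal SOX10 high cells and 1.01 and 0.307 in luminal SOX10 low cells. Il34 rose as well (log2 fold change 2.08 ± 0.24 SE, adjusted p = 5.4e-04). The call for Il6 in basal SOX10 high cells over luminal SOX10 low cells was lost without basal SOX10 high replicate 2 (adjusted p = 0.0561).

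Il24 had 5.30 and 2.48 RPKM in basal SOX10 high cells, 0.308 and 0.248 in luminal SOX10 high cells and 0.226 and 0 in luminal SOX10 low cells. Il7, a lymphocyte survival factor, had 3.99 and 4.09 RPKM in basal SOX10 high cells, 0.459 and 0.322 in luminal SOX10 high cells and 0.439 and 0.584 in luminal SOX10 low cells. Both were under 1 RPKM in every luminal library and above it in the basal ones. They are thus reported in PY230 tumours through the basal SOX10 high group alone, and their tests are not independent of that choice. Il24 rose in basal SOX10 high against luminal SOX10 low cells (log2 fold change 2.08 ± 0.29 SE, adjusted p = 0.00122), and Il7 against luminal SOX10 high cells (log2 fold change 1.86 ± 0.16 SE, adjusted p = 3.2e-04).

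The 4 ligands lower in basal SOX10 high than in luminal SOX10 low cells were Cxcl15, Cxcl17, Il18 and Il15. Cxcl15 had 0.359 and 1.06 RPKM in basal SOX10 high cells, 3.86 and 9.83 in luminal SOX10 high cells and 23.2 and 18.9 in luminal SOX10 low cells. Cxcl17 had 0.607 and 0.663 RPKM in basal SOX10 high cells, 3.02 and 5.47 in luminal SOX10 high cells and 9.22 and 17.3 in luminal SOX10 low cells. Il18 had 0.178 and 0.631 RPKM in basal SOX10 high cells, 1.72 and 3.85 in luminal SOX10 high cells and 8.52 and 3.80 in luminal SOX10 low cells. For Cxcl15 and Cxcl17 the groups did not overlap, with basal SOX10 high cells lowest and luminal SOX10 low cells highest, while the luminal groups overlapped for Il18. Il15, a growth factor of T and natural killer cells named after its values were seen, had 1.21 and 2.11 RPKM in basal SOX10 high cells, 4.001 and 4.60 in luminal SOX10 high cells and 5.38 and 4.58 in luminal SOX10 low cells. In basal SOX10 high against luminal SOX10 low cells Cxcl15 fell (log2 fold change -3.71 ± 0.39 SE, adjusted p = 3.5e-04), as did Cxcl17 (log2 fold change -3.06 ± 0.33 SE, adjusted p = 3.9e-04), Il18 (log2 fold change -2.29 ± 0.40 SE, adjusted p = 0.00325) and Il15 (log2 fold change -1.19 ± 0.21 SE, adjusted p = 0.0031). Il18r1, the receptor of Il18, had 0.385 and 1.12 RPKM in basal SOX10 high cells, 3.70 and 10.8 in luminal SOX10 high cells and 22.8 and 22.2 in luminal SOX10 low cells. Il18r1 fell too (log2 fold change -3.77 ± 0.42 SE, adjusted p = 4.6e-04). In luminal SOX10 high against luminal SOX10 low cells Cxcl15 (log2 fold change -1.60 ± 0.39 SE, adjusted p = 0.0321) and Cxcl17 (log2 fold change -1.42 ± 0.33 SE, adjusted p = 0.0277) were the 2 ligands called lower. The call for Cxcl15 in luminal SOX10 high cells over luminal SOX10 low cells was lost without luminal SOX10 high replicate 1, luminal SOX10 low replicate 1 or luminal SOX10 low replicate 2 or with pseudocount 0.25 or without the filter on low values (adjusted p = 0.0536 to 0.123). The call for Cxcl17 in luminal SOX10 high cells over luminal SOX10 low cells was lost without luminal SOX10 high replicate 1 or without luminal SOX10 low replicate 2 or without the filter on low values (adjusted p = 0.0666 to 0.127).

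Il23a, the subunit particular to interleukin 23, had 0.733 and 0.492 RPKM in basal SOX10 high cells, 6.64 and 2.44 in luminal SOX10 high cells and 0.222 and 0.246 in luminal SOX10 low cells. It was highest in luminal SOX10 high cells and under 1 RPKM in the other groups. Il23a is thus reported through that group alone, and its test is not independent of that choice. It rose in luminal SOX10 high against luminal SOX10 low cells (log2 fold change 2.05 ± 0.36 SE, adjusted p = 0.0139). Of 25 interleukin receptor chains tested there, 4 were higher and 5 lower (all genes 12.6% higher and 10% lower). Il20rb, a receptor chain of Il24, rose (log2 fold change 2.24 ± 0.20 SE, adjusted p = 0.00238), and so did Il1rap (log2 fold change 2.23 ± 0.23 SE, adjusted p = 0.00319). Cxcr4 had 15.8 and 21.8 RPKM in basal SOX10 high cells, 22.4 and 19.4 in luminal SOX10 high cells and 4.09 and 4.49 in luminal SOX10 low cells. Cxcr4 rose in luminal SOX10 high against luminal SOX10 low cells (log2 fold change 2.05 ± 0.18 SE, adjusted p = 0.00238). Of 22 NF-kB pathway genes tested, 4 were higher and 11 lower in basal SOX10 high than in luminal SOX10 low cells (all genes 21.8% higher and 33.4% lower). The lower ones included Bcl3, an NF-kB coregulator (log2 fold change -3.70 ± 0.16 SE, adjusted p = 2.9e-05), and Tnf (log2 fold change -2.64 ± 0.29 SE, adjusted p = 4.0e-04). The call for Il23a in luminal SOX10 high cells over luminal SOX10 low cells was lost without luminal SOX10 low replicate 1 or without luminal SOX10 low replicate 2 (adjusted p = 0.0519 to 0.0619).

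The remaining reported ligands of PY230 tumours, among them the 12 CC chemokines, lay between 0 and 38.9 RPKM, with Il33, Ccl2 and Ccl8 the highest. The 12 myeloid markers summed to 91.1 to 130 RPKM in basal SOX10 high, 102 to 142 in luminal SOX10 high and 37.8 to 63.8 in luminal SOX10 low cells. Of 10 tested, 6 were higher in luminal SOX10 high than in luminal SOX10 low cells (all genes 12.6% higher). In basal SOX10 high against luminal SOX10 low cells 7 of 10 were higher (all genes 21.8% higher). The 7 fibroblast markers summed to 190.1 to 325 RPKM in basal SOX10 high, 102 to 188 in luminal SOX10 high and 64.5 to 129.9 in luminal SOX10 low cells. In basal SOX10 high against luminal SOX10 low cells 4 of 7 fibroblast and 2 of 3 endothelial markers tested were also higher, beside the same 21.8% of all genes. Their part in the ligand differences was not tested.

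**Figure D3:**
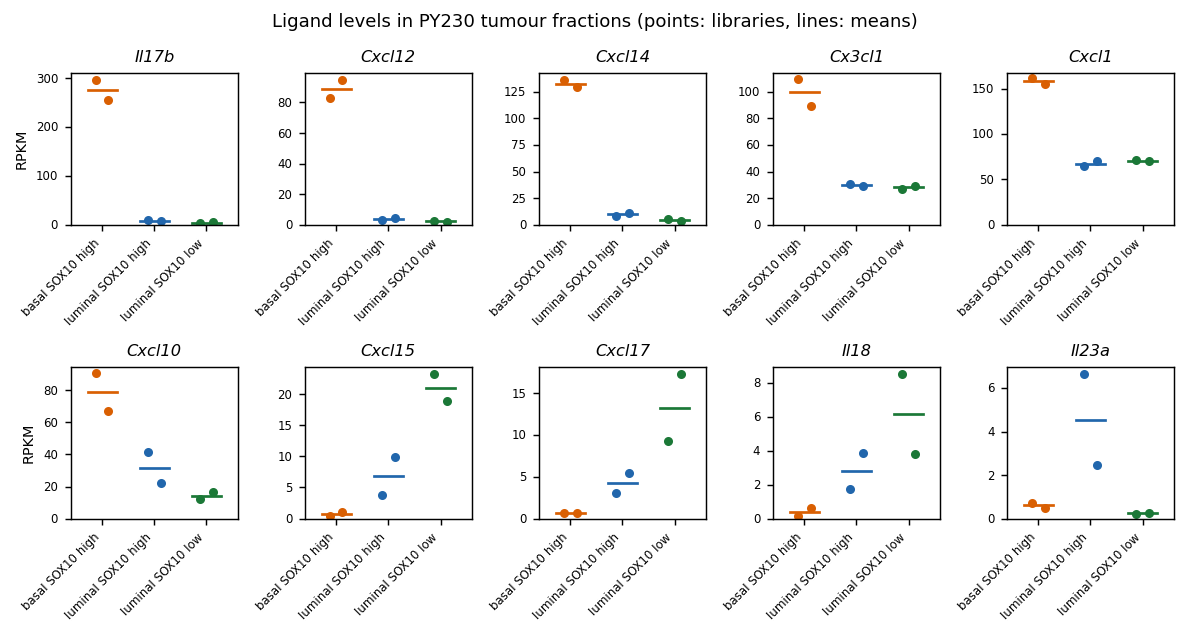
RPKM of 10 ligands in the 6 PY230 libraries on a linear axis of its own for each ligand, with 1 point per library, a bar at the mean, and basal SOX10 high, luminal SOX10 high and luminal SOX10 low cells side by side. Il17b, Cxcl12, Cxcl14, Cx3cl1, Cxcl1 and Cxcl10 are highest in basal SOX10 high cells, Cxcl15 and Cxcl17 in luminal SOX10 low cells, and Il23a in luminal SOX10 high cells.

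Basal over luminal differences were set side by side between the normal gland and PY230 tumours, whose tables were normalized separately and share no library. Basal SOX10 high and luminal SOX10 low cells differ in lineage and in SOX10 level. Within that comparison alone these cannot be told apart. Basal and luminal SOX10 high cells differ in lineage, with Sox10 at 72.0 and 78.3 against 101 and 66.9 RPKM. The luminal groups differ in SOX10 level. In these comparisons, in that order, the log2 difference was 4.84 and 0.87 for Il17b and -2.12 and -1.60 for Cxcl15. With no basal SOX10 low group in PY230 tumours, SOX10 level within basal cells cannot be compared. Over the 27 ligands tested in both tables, the log2 differences of basal over mature luminal cells and of basal SOX10 high over luminal SOX10 low cells had the same sign for 25, with Pearson's r of 0.83 and Spearman's rho of 0.79 across ligands, which are not independent replicates. Over the 11315 genes tested in both tables, 67.5% had the same sign, with r of 0.64 and rho of 0.58. 13 ligands were called in both, and all 13 had the same direction. The calls in each comparison numbered 20, counted over all 34 ligands tested in normal cells and all 33 in PY230 tumours. Of all genes 30.1% were called in both, 88.3% of these in the same direction. Higher in both were Il17b, Cxcl12, Cxcl14, Cxcl10, Cx3cl1, Il6, Il24, Ccl2, Cxcl1 and Cxcl2, and lower in both were Cxcl15, Cxcl17 and Il18. Il24 was tested in PY230 tumours through the basal SOX10 high libraries alone. With 1 library left out, Cxcl17 and Il18 lost the normal call without either mature luminal replicate (adjusted p = 0.0554 to 0.0925). In PY230 tumours, Ccl2, Il6 and Cxcl2 lost the call without basal SOX10 high replicate 2, and Cxcl2 also without either luminal SOX10 low replicate (adjusted p = 0.0561 to 0.13). For the other pair, basal cells over luminal progenitors and basal SOX10 high over luminal SOX10 high cells, 18 of 27 had the same sign, with r of 0.68 and rho of 0.49. Of these ligands 6 were called in both, while 15 were called in each over all 34 and all 33 ligands tested. Over all 11315 genes 62.6% had the same sign, with r of 0.54 and rho of 0.45, and 17.4% were called in both, 85.5% of these in the same direction. Cxcl1 was the 1 of these 6 with opposite directions, at a log2 difference of -1.12 in normal cells and 1.23 in PY230 tumours; the normal call was lost without luminal progenitor replicate 1 and under quantile normalization (adjusted p = 0.0629 and 0.849, limma).

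**Figure D4:**
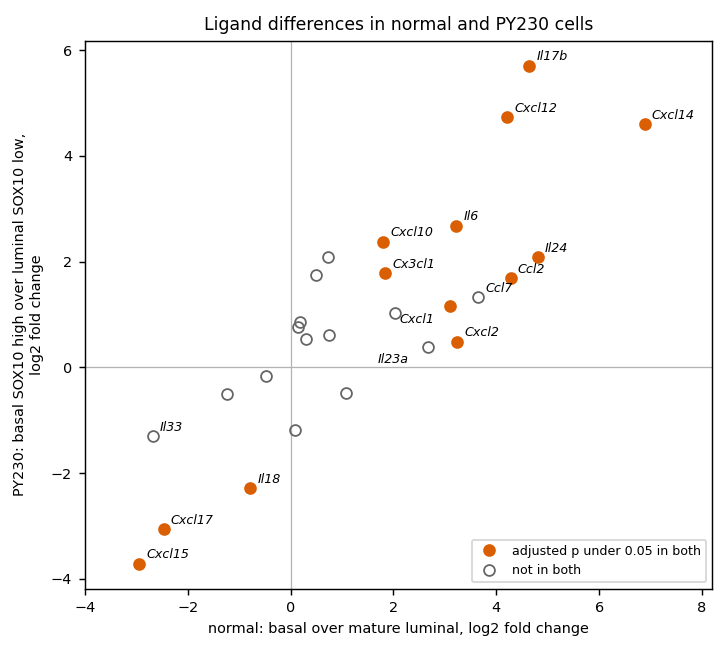
Log2 difference of each of 27 ligands in basal over mature luminal cells of the normal gland (x axis) and in basal SOX10 high over luminal SOX10 low cells of PY230 tumours (y axis), on the log2(RPKM + 1) scale, with filled points for the 13 ligands called in both. Il17b, Cxcl12 and Cxcl14 lie at the upper right and Cxcl15 and Cxcl17 at the lower left. Il17b is listed at 0 in mature luminal cells, so its place on the x axis depends on the 1 added before the log. The same holds for Cxcl14, at 0 and 0.208 RPKM in those cells.

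In C3-1-TAg tumours, SOX10 low replicate 1 stood apart from the other libraries: its 5 general leukocyte markers summed to 279.7 RPKM, against 0.892 to 11.3 RPKM in the other 8 libraries, and its 12 myeloid markers to 2715 RPKM, against 17.1 to 163.8. All 12 myeloid markers reached 1 RPKM there, and the macrophage genes C1qa and Lyz2 had 624 and 631 RPKM. Its fibroblast markers summed to 397 RPKM, against 4.31 to 366 elsewhere. Some libraries also resembled a library of the other group more than their own: across genes, SOX10 high replicate 1 and SOX10 low replicate 2 correlated at r = 0.980, and SOX10 high replicate 2 and SOX10 low replicate 3 at 0.968. SOX10 high replicates 4 and 5 correlated at 0.961, and the other pairs within a group at 0.829 to 0.916. The labels do not say which libraries share a tumour. All 9 are titled basal, but the basal markers varied: Krt14 had 89.7 to 1007 RPKM, Trp63 0.264 to 31.9 RPKM and the contractile gene Acta2 at most 10.5 RPKM. Sox10 had 91.9 to 164 RPKM in the SOX10 high samples, against at most 40.9 in the SOX10 low samples, where replicate 1 was highest.

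No ligand passed the test between SOX10 high and SOX10 low samples, in a fit that did not pair libraries. A crossed pairing was not fitted for these tumours. By limma 0 of 40 were called, beside 5 of 12817 genes or 0.039%, and 4 had an unadjusted p under 0.05, beside 3.23% of all genes. The groups did not overlap for Ccl17 and Cxcl17, both lower in the SOX10 high samples, where 1.16% of all genes did not overlap in either direction, 0.601% with the SOX10 high samples below and 0.562% with them above. The median log2 difference of the ligands was -0.22 with 11 of 40 above 0, and without SOX10 low replicate 1 it was 0.26 with 29 of 40 above 0. All genes had a median of -0.04 both times, with 43.7% and 44% above 0. That library was the highest of the 9 for 23 of 40 ligands (14.8% of all genes), and it exceeded the next library at least 2-fold for 17, 5-fold for 13 and 10-fold for 6, beside 3.35%, 1.24% and 0.733% of all genes. SOX10 high replicate 3 was highest for 8 (9.91% of all genes).

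Cxcl1 was again the first ligand, in all libraries but SOX10 low replicate 1. It had 467, 712, 4447, 1312 and 1183 RPKM in the SOX10 high samples, against 442, 390.0, 466 and 764 RPKM in the SOX10 low samples. SOX10 high replicate 3 lay far above the rest, and the groups overlapped (log2 difference 1.25 ± 0.57 SE, unadjusted p = 0.0536, limma adjusted p = 1). Cxcl2 had 76.3, 129.8, 1388, 373 and 229 RPKM in the SOX10 high samples, against 531, 90.2, 67.1 and 175 RPKM in the SOX10 low samples, with the same library highest, SOX10 low replicate 1 second, and overlap of the groups. Cxcl5 had 198, 64.6, 396, 142 and 95.5 RPKM in the SOX10 high samples, against 20.8, 197, 28.6 and 148 RPKM in the SOX10 low samples, again highest in SOX10 high replicate 3. Both replicate 1 of SOX10 high and replicate 2 of SOX10 low, the pair alike across genes, had nearly equal Cxcl5, at 197.7 and 197.2 RPKM. Csf3, the neutrophil growth factor named here after its values were seen, was also highest in SOX10 high replicate 3, with 73.0, 28.4, 476, 58.7 and 31.0 RPKM in the SOX10 high samples, against 28.4, 33.7, 21.9 and 28.8 RPKM in the SOX10 low samples.

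Cxcl14 had 47.8, 8.57, 134, 94.5 and 45.4 RPKM in the SOX10 high samples, against 272, 92.5, 5.62 and 249.6 RPKM in the SOX10 low samples. The groups overlapped, with SOX10 high replicate 2 and SOX10 low replicate 3 lowest and SOX10 low replicates 1 and 4 highest. Il17b had 0.294, 0.752, 12.2, 2.88 and 10.3 RPKM in the SOX10 high samples, against 0.736, 0, 0.372 and 0.429 RPKM in the SOX10 low samples. It was above 2 RPKM in SOX10 high replicates 3, 4 and 5 and below 1 RPKM in the other 6 libraries, so the groups overlapped (log2 difference 1.63 ± 0.67 SE, unadjusted p = 0.0336, limma adjusted p = 1). Cxcl17 had 1.26, 0.613, 0.107, 0.815 and 0.0890 RPKM in the SOX10 high samples, against 1.95, 2.91, 14.2 and 1.28 RPKM in the SOX10 low samples, with every SOX10 high sample below every SOX10 low one (log2 difference -1.56 ± 0.51 SE, unadjusted p = 0.0114, limma adjusted p = 1; -1.76 without SOX10 low replicate 1).

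Many ligands that macrophages and dendritic cells are known to make were highest in SOX10 low replicate 1. Ccl8, a CC chemokine, had 1.08, 0, 3.84, 5.40 and 5.75 RPKM in the SOX10 high samples, against 460.3, 0.518, 1.52 and 3.99 RPKM in the SOX10 low samples (log2 difference -1.52 ± 1.46 SE, unadjusted p = 0.32, limma adjusted p = 1; 0.34 without SOX10 low replicate 1). Il1b, the inflammasome-released interleukin 1, had 0.971, 0.710, 17.2, 17.4 and 21.5 RPKM in the SOX10 high samples, against 194, 5.14, 16.9 and 23.3 RPKM in the SOX10 low samples (log2 difference -1.82 ± 1.09 SE, unadjusted p = 0.125, limma adjusted p = 1; -0.87 without SOX10 low replicate 1). Ccl17 and Ccl22, the ligands of CCR4, are products of dendritic cells and macrophages. Ccl17 had 0.227, 0.481, 0.795, 1.54 and 1.54 RPKM in the SOX10 high samples, against 41.4, 1.74, 3.77 and 1.74 RPKM in the SOX10 low samples (log2 difference -1.76 ± 0.72 SE, unadjusted p = 0.0345, limma adjusted p = 1; -0.84 without SOX10 low replicate 1). Ccl22 had 0, 0.105, 1.299, 0.869 and 0.892 RPKM in the SOX10 high samples, against 19.2, 0.472, 2.24 and 4.99 RPKM in the SOX10 low samples (log2 difference -1.66 ± 0.64 SE, unadjusted p = 0.0257, limma adjusted p = 1; -0.98 without SOX10 low replicate 1). The macrophage chemokines Ccl3, Ccl4, Ccl6, Ccl9 and Ccl12 were likewise highest in that library, at 45.1 to 388 RPKM against at most 43.0 in any other. How reads that fit both Ccl3 and Ccl4 were counted is not stated in the sources. The part of leukocyte RNA in these values was not tested.

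None of the chemokine receptors, atypical receptors, interleukin receptor chains, antagonists or NF-kB genes of the lists was called in C3-1-TAg tumours (0 of 3, 0 of 2, 0 of 28, 0 of 3 and 0 of 22 tested, at 0.039% of all genes). Ackr3 had 27.0, 34.5, 1.99, 29.0 and 14.9 RPKM in the SOX10 high samples, against 42.4, 36.8, 39.1 and 55.4 RPKM in the SOX10 low samples, with every SOX10 high sample below every SOX10 low one (log2 difference -1.37 ± 0.63 SE, unadjusted p = 0.0541, limma adjusted p = 1; 0.601% of all genes did not overlap with the SOX10 high samples below). The reported ligands not named above, such as Cxcl3, Cxcl10, Cxcl16, Cx3cl1, Ccl20, Il23a, Il24, Il33, Il34 and Il6, lay between 0 and 177 RPKM. Over the 29 ligands tested in both tables, the log2 differences of luminal SOX10 high over luminal SOX10 low cells in PY230 and of SOX10 high over SOX10 low samples in C3-1-TAg tumours had the same sign for 12, with r of 0.17 and rho of 0.05 across ligands. Over the 11926 genes tested in both, 56.7% had the same sign, with r of 0.29 and rho of 0.21.

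**Figure D5:**
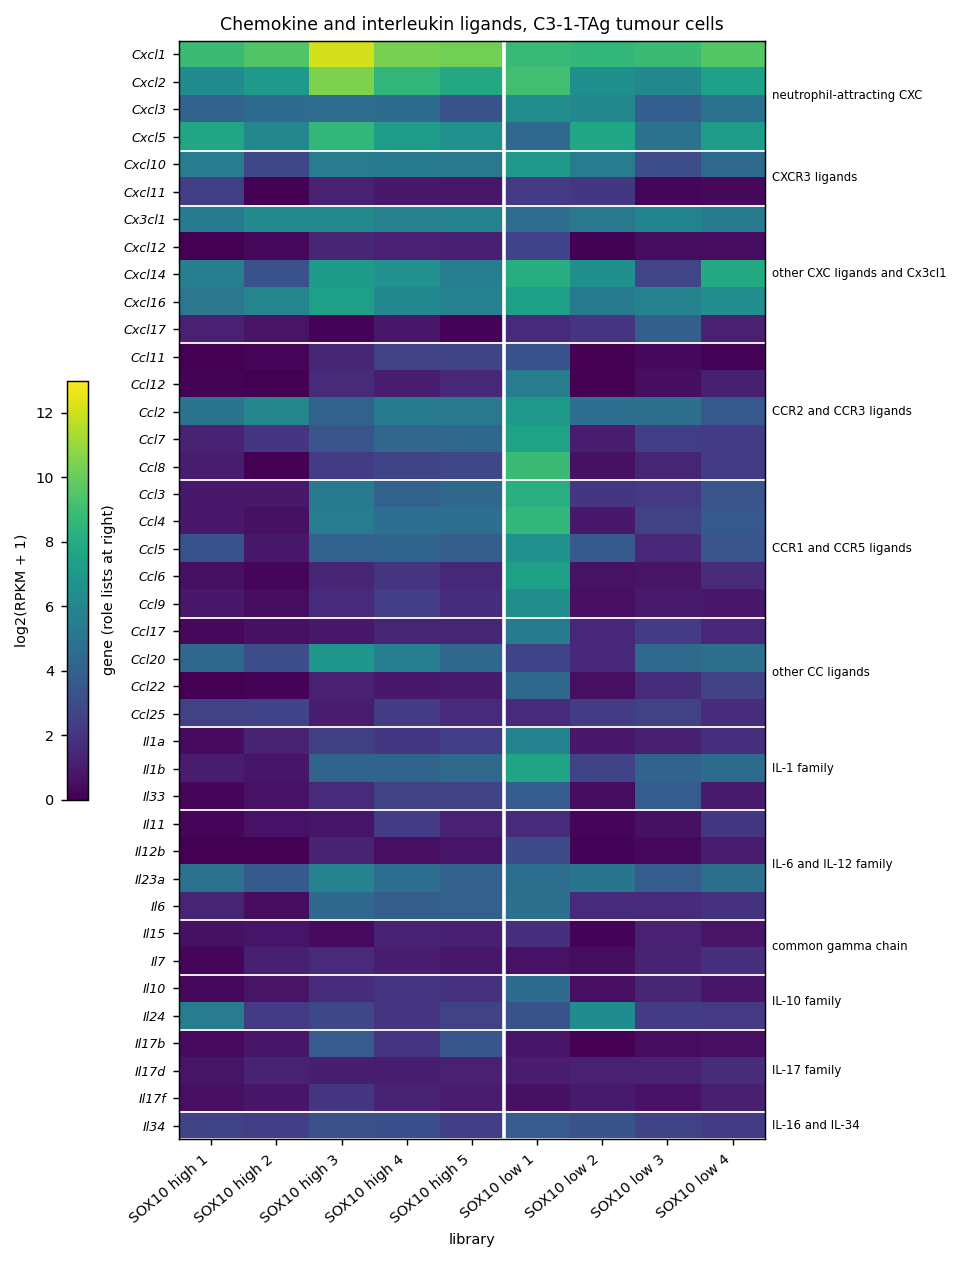
Level of each of the 40 ligands reported in C3-1-TAg tumours, as log2(RPKM + 1) by colour, with 1 column per library, SOX10 high at the left and SOX10 low at the right, and rows grouped by role. SOX10 low replicate 1 is the brightest column for 23 of 40 ligands, most of them CC chemokines, and Cxcl1 and Cxcl2 are brightest in SOX10 high replicate 3.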

How the data were processed

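RNA was measured in 23 libraries of 9 groups, which the authors deposited as 3 separate tables of RPKM per gene symbol. Per the submitters' processing notes, FastQC, HISAT2 2.0.5, StringTie 1.3.1c and mouse build mm9 were used; how reads shared between similar genes were counted is not given in the sources used here. Per the labels' protocols, about 2000 sorted cells gave cDNA by SmartSeq2 with 18 PCR cycles and Nextera XT libraries with 10, read from one end. These kits do not mark strand and hold no molecular identifiers, so an overlapping antisense gene cannot be told apart. Read depth cannot be recovered from these RPKM values, so no counting intervals are given.

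In the C3-1-TAg table every value was either 0 or at least 2, so 2 was taken off the values above 0, and 2200 symbols were respelled in mouse style. Genes that reached 1 RPKM in 2 or more libraries of a table were fitted on log2(RPKM + 1) by limma 3.58.1 (R 4.3.3) with a mean-variance trend, all groups of a table in one model, and Benjamini-Hochberg adjustment over all its genes; a call is an adjusted p under 0.05. Groups were taken from the sample labels, and values were compared within tables. The steps were tested on simulated data. Alternatives were 2 other pseudocounts, no filter, quantile and median-of-ratios scaling, a replicate block and each library left out.

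Ligands named are up to 12 per table with the largest called log2 difference of at least 1, or the 6 largest where none was called, and the 5 highest means; from each list of receptors and pathway genes, the 2 largest calls per comparison could be named. Cxcl5, Cxcl10, Cx3cl1 and Il33 and the ranges of Ccl7, Il6 and Il18 in normal cells, Il15 in PY230 tumours, Csf3 and Ackr3 in C3-1-TAg tumours, and Cxcr2 and Il17rb were added after their values were seen. The members and lists were chosen with earlier results of these data known. Promoters are from RefSeq, build GRCm38.p6.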

Additional observations from a re-analysis of the deposited data

Results flagged for a closer look

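Within the 4 or 5 C3-1-TAg libraries of a group, each ligand's highest and lowest library was compared with the nearest other one by Dixon's ratio. Of 80 combinations of ligand and group, 8 held a library far from the others, where chance flags about 1 in 20. In 5 of them it was SOX10 low replicate 1, the library with the high leukocyte markers. It had 165 RPKM of Ccl6, where the other SOX10 low samples had 0.55 to 1.88. Its Ccl9 was 86.2 RPKM against 0.426 to 0.895 in those samples, and its Il6 was 26.9 RPKM against 1.94 to 2.69. For Ccl11 it had 8.65 RPKM against 0.031 to 0.279, and for Cxcl12 5.20 RPKM against 0.053 to 0.387.

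The other 3 were in SOX10 high samples. Replicate 2 was low in Ccl5, a T cell and monocyte chemokine, with 0.775 RPKM where the others had 8.68 to 17.0, and in Cxcl10 with 6.01 RPKM where the others had 36.5 to 44.8. Replicate 1 was high in Il24, with 42.6 RPKM where the others had 2.90 to 6.06. The library of the other group that each resembles across genes had a like value. SOX10 low replicate 3, which correlated with SOX10 high replicate 2 at r = 0.968, had 1.78 RPKM of Ccl5 and 7.41 RPKM of Cxcl10. SOX10 low replicate 2, which correlated with SOX10 high replicate 1 at r = 0.980, had 78.5 RPKM of Il24. The cause of these values was not tested.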

How the results depend on the processing

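Of 148 ligand calls, the 2 other pseudocounts, 0.25 and 4, ended 4 and 5, quantile scaling 9 and median-of-ratios factors 3, while testing without the filter on low values, which adds genes to the adjustment, ended 25. Without that filter, mature luminal cells against luminal progenitors had 9 ligands called (15 with it) and luminal against luminal PY230 cells, SOX10 high against low, had 4 (10 with it). With each library left out in turn, 62 of the calls were lost at least once. The number of ligands called then ranged from 13 to 21 for fMaSC against basal cells, 13 to 18 against luminal progenitors and 9 to 12 against mature luminal cells. It ranged from 6 to 23 for basal cells against luminal progenitors, 16 to 23 for basal against mature luminal cells and 5 to 10 for mature luminal cells against luminal progenitors. In PY230 tumours it was 1 to 6 for luminal SOX10 high against luminal SOX10 low, 9 to 14 for basal SOX10 high against luminal SOX10 high and 12 to 20 for basal SOX10 high against luminal SOX10 low cells, and in C3-1-TAg tumours 0. A group left with 1 library was assumed to vary like the others. The log2 difference of Ccl8 in C3-1-TAg tumours was -1.52 with all libraries and ranged from -2.41 to 0.34 with 1 left out, the positive value without SOX10 low replicate 1. The labels do not say whether replicate numbers pair the libraries. Correlations of same-numbered deviations were 0 to 0.221 in normal cells and -0.265 to 0.295 in PY230 tumours. With 2 libraries in a group each comparison gives 1 such value apart from its sign, so these cannot decide on pairing. In C3-1-TAg tumours they were -0.329 to 0.194, and each of the 4 numbers shared by both groups correlated best with another number (r = 0.257 to 0.813). With the replicate number as a block, the counts were 20, 21, 18, 15, 20 and 15 in the normal comparisons, in the order above, and 8, 15, 19 and 0 in the tumour ones. A crossed pairing of the PY230 numbers, chosen after seeing the data, gave 19 ligands for luminal SOX10 high and 28 for basal SOX10 high against luminal SOX10 low cells. With 2 libraries in most groups and no read counts, differences of genes near 1 RPKM are the least certain.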
